A study of Mus musculus with 6 samples.

Results

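Genes of pigment cells were followed in RNA from the lenses of newborn mice labelled Gclc KO and Gclc CON. The set was chosen by name and holds 10 genes of the 27179 in the deposited table, all of which matched an Entrez identifier there: Tyrp1, Tyr, Dct, Pmel, Mlana, Slc45a2, Mitf, Rpe65, Rlbp1 and Best1. There were 3 libraries labelled Gclc KO (KO 1 to 3) and 3 labelled Gclc CON (CON 1 to 3), all from lenses of pups of strain B6/FVB at postnatal day 1. Glutamate-cysteine ligase carries out the rate-limiting step of glutathione synthesis, and Gclc codes for its catalytic subunit. The labels give neither the alleles that the CON pups carried nor a Cre driver, the part of Gclc removed, the sex or the number of animals per library, so a p-value here speaks only of the spread among 6 libraries that may be technical replicates. FVB is an albino strain with a loss-of-function allele of Tyr. The labels do not say which Tyr alleles any library carried, and whether coat colour alleles differed between the groups was not tested.

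Melanin is made in melanosomes, organelles of melanocytes and of the pigmented epithelia of the eye. Tyrosinase (Tyr) oxidises tyrosine, and the related enzymes TYRP1 and DCT act on later intermediates of eumelanin synthesis. PMEL forms the fibrils on which melanin is laid down, MLANA takes part in PMEL processing, and SLC45A2 is a melanosomal transporter that affects organelle pH. MITF, a basic helix-loop-helix transcription factor, activates many of these genes through short E-box sequences. The retinal pigment epithelium and the pigmented layers of the iris and ciliary body derive from the neural tube, whereas melanocytes derive from the neural crest. The pigment epithelium of the retina also runs the visual cycle, in which RPE65 isomerises the retinoid and the binding protein encoded by Rlbp1 (CRALBP) carries it. Best1 encodes bestrophin, an ion channel of that epithelium. The lens itself is not pigmented.

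The promoters of 4 members are shown because these were the members whose normalised reads in KO did not overlap those in CON, as the values further on give. The sequences come from RefSeq (GRCm38.p6, matched by Entrez identifier) and cover the 170 bases before the annotated start of transcription, read 5′ to 3′ on the gene's strand. They are chr4:80834043-80834212 (plus strand) for Tyrp1, chr7:87493513-87493682 (minus) for Tyr, chr14:118052247-118052416 (minus) for Dct and chr7:79387028-79387197 (minus) for Rlbp1. Capitals mark CATGTG, the core of the E-box through which MITF acts, or its reverse complement CACATG.
Tyrp1: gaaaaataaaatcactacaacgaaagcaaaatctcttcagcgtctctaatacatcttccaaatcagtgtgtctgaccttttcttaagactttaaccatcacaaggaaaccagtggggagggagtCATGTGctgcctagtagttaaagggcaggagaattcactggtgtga
Tyr: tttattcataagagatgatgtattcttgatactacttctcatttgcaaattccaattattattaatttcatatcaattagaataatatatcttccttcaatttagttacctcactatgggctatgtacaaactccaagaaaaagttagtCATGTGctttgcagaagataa
Dct: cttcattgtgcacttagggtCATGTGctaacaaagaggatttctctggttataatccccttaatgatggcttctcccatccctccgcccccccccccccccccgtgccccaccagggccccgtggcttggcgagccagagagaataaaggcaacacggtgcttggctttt
Rlbp1: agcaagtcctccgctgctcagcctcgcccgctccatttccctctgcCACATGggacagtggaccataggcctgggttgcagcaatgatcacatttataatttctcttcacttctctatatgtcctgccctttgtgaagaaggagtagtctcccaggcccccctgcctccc
In Tyrp1 the motif began 46 bases before the start, in Tyr 21, in Dct 150 and, on the other strand, in Rlbp1 124. Dct held another copy, on the other strand, whose first base lay 232 bases before the start, outside the stretch shown. Over windows from 250 bases before to 50 after the start, searched on both strands, CATGTG was in 14.2% of all 32851 RefSeq windows. The longer TCATGTG, which contains it, was in 3.77% of all windows and in those of Tyrp1, Tyr and Dct. The longest motif searched was the core in Tyrp1 with the 3 bases before it and the 2 after it, AGTCATGTGCT, which contains both others and is known as the M-box of melanocyte gene promoters. It was in 7 of the 32851 windows (0.0213%), and besides that of Tyrp1, from which it was read, the window of Tyr was among these. Of the other members, Mitf (with 3 start sites) and Best1 had windows without CATGTG, and that of Rpe65 held it 239 bases before the start on the other strand. Pmel, Mlana and Slc45a2 had no entry. A match in these letters is a description of the window and not evidence of binding.

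Reads per gene were recovered from the deposited log2 values and divided by the size factors of those values, which gives normalised reads. Libraries held from 20361430 (CON 2) to 61219009 (KO 3) reads in genes, of which the 16 crystallins took from 40.5% to 47.5% in KO and from 59.5% to 68.4% in CON. CON 2 was the shallowest library, and 1 read was worth 3.15 normalised reads there, against 0.529 in KO 3. Its deposited column name also ended differently from all the others, and the labels do not explain that ending. Gclc itself had 17.9, 72.1 and 58.1 normalised reads across KO 1 to 3, against 178.4, 283.2 and 172.6 across CON 1 to 3. All 3 KO libraries lay below all CON libraries (log2 difference -1.01, SE 0.28, limma adjusted p = 0.0387). The direction was the same in every alternative that tested Gclc, but the call was lost without any single library other than CON 1 (0.0501 to 0.132), with no filter (0.165), on log2 of normalised reads plus 1 (0.0709) and with voom on recovered reads (0.0609 to 0.124). It was also lost with the style of the library name as a covariate (limma adjusted p = 0.11), and since KO 2 and KO 3 share a style, that fit sets KO 1 alone against CON. Log2 differences below are the KO mean minus the CON mean of the deposited values, except where another scaling, voom or a covariate is named. On the scale of the deposited values, genes with few reads show smaller differences than their read ratios. A call is an adjusted p under 0.05 in limma over all 11468 genes tested.

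Pigment genes were present in every library, and the members did not move as 1 group. Tyrp1 was 1.96-fold and Rlbp1 2.46-fold higher in KO lenses, and these 2 of the 10 members passed the test. Dct and Tyr were also higher in every KO library than in any CON library, at 1.85-fold and 1.64-fold, but did not pass. Pmel, Mlana and Mitf had overlapping groups, Slc45a2 and Best1 had few reads, and Rpe65 had none in any library. Of all genes tested, 6.91% were called higher and 4.39% lower, and normalised reads of all KO libraries lay above those of all CON libraries in 16.9%. Of the 10 members, 2 were called higher, none was called lower, and 4 had all KO above all CON libraries. At an unadjusted limma p under 0.05, 4 members were higher and 0 lower, against 15% and 11.3% of all genes tested, and voom on the recovered reads called 0 lower as well. Over the 10 members without a filter, the median log2 difference was 0.50, against 0.08 over the 19225 genes with reads. These sets are not alike, since Rpe65, without reads, is among the 10, and many genes with few reads are among the 19225. Over all genes tested the median was 0.03. In bulk lens RNA, more pigment cells carried with the lens and more RNA per cell cannot be told apart.

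**Figure D1:**
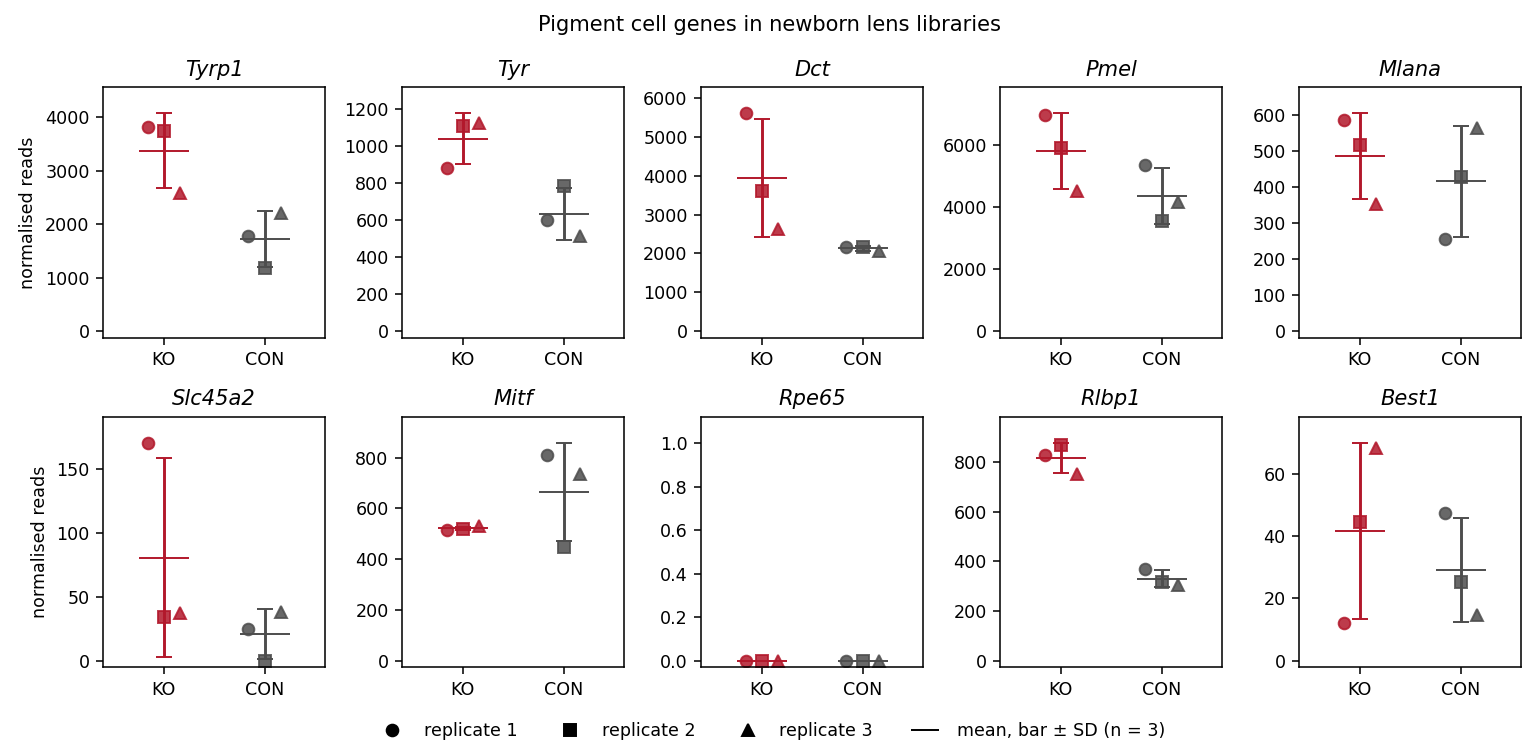
Normalised reads (vertical axes, linear from 0, scaled per gene) of the 10 members in KO and CON libraries, with points for libraries, horizontal lines for means and bars for ± SD (n = 3 per group). The groups do not overlap for Tyrp1, Tyr, Dct and Rlbp1, and Rpe65 is at 0 in all 6 libraries.

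Among the melanin enzymes, Tyrp1 (Entrez 22178) had 3818, 3740 and 2577 normalised reads across KO 1 to 3, against 1783, 1174 and 2220 across CON 1 to 3. The lowest KO library, KO 3, lay above the highest CON library, CON 3. The means were 3378 ± 695 in KO and 1726 ± 525.3 in CON (SD, n = 3 each; log2 difference 0.92, SE 0.26, limma adjusted p = 0.0398). The call was lost without KO 1 (limma adjusted p = 0.126), without KO 2 (0.175) and without CON 2 (0.13). It was also lost with no filter (0.234), equal medians (0.0688), voom with size factors (0.0598), log2 of normalised reads plus 1 (0.0585), no trend (0.0621) and the name style as covariate (0.188), and the p ran from 0.00815 to 0.234 over all alternatives. Its direction was the same in each of them.

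Dct (Entrez 13190) had 5601, 3617 and 2622 normalised reads across KO 1 to 3, against 2164, 2172 and 2055 across CON 1 to 3. The CON libraries lay close together and the KO libraries spread widely, with KO 1 highest, at 3946 ± 1517 in KO and 2130 ± 65.4 in CON (SD, n = 3 each). The log2 difference was 0.77 (SE 0.26, limma adjusted p = 0.0769). Without KO 3 the difference was 1.02 and passed (limma adjusted p = 0.0473), and over all alternatives the p ran from 0.0102 to 0.322. Tyr (Entrez 22173), the enzyme at the head of the pathway, had 881.7, 1112 and 1127 normalised reads across KO 1 to 3, against 602.8, 786.8 and 513.3 across CON 1 to 3. Here KO 1 was the lowest KO library, unlike in Tyrp1 and Dct. The log2 difference was 0.60 (SE 0.23, limma adjusted p = 0.123).

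Of the melanosome proteins, Pmel (Entrez 20431) had 6970, 5917 and 4526 normalised reads across KO 1 to 3, against 5354, 3550 and 4187 across CON 1 to 3. KO 3 lay below CON 1, so the groups overlapped, and the log2 difference was 0.40 (SE 0.23, limma adjusted p = 0.304). Pmel exons share 105 bases with Dgka and 34 with Cdk2 on the other strand, of 2292 exon bases in GRCm38, and without strand these reads cannot be told apart. Mlana (Entrez 77836) had 586.3, 515.8 and 353.6 normalised reads across KO 1 to 3, against 256.5, 428 and 564.9 across CON 1 to 3. The ranges overlapped almost fully (log2 difference 0.19, SE 0.28, limma adjusted p = 0.727), and without CON 1 the difference was -0.04. Slc45a2 (Entrez 22293) had 296, 57 and 71 reads across KO 1 to 3, against 24, 0 and 26 across CON 1 to 3, too few to enter the fit. KO 1 stood apart at 170.5 normalised reads, whereas KO 2 (34.3) and KO 3 (37.5) lay at or below CON 3 (38.3). The means were 80.8 ± 77.7 in KO and 21.2 ± 19.5 in CON (exact permutation test, two-sided, p = 0.3, n = 3 each). The smallest p that 3 against 3 libraries allow is 0.1. Per 1000000 reads outside crystallins, Slc45a2 stood at 9.41, 2.09 and 2.17 across KO 1 to 3, against 1.37, 0 and 1.81 across CON 1 to 3. All KO libraries lay above all CON libraries on that scale (p = 0.1, same exact test), KO 2 and KO 3 only narrowly. That scale raises genes in KO in general, with a median log2 difference of 0.23 over all genes tested (voom). With the size factors the median was 0.03. The share of all genes separated on that scale is not given here.

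Mitf (Entrez 17342), the transcription factor of the pathway, had 515.5, 520.6 and 529.1 normalised reads across KO 1 to 3, against 811.8, 446.9 and 734.5 across CON 1 to 3. The KO libraries were nearly equal and lay inside the CON range, at 521.7 ± 6.88 in KO and 664.4 ± 192.3 in CON (SD, n = 3 each). The log2 difference was -0.24 (SE 0.25, limma adjusted p = 0.588). Scaled by total reads instead it was 0.44, where the median of all genes stood at 0.86, so that Mitf lay 0.42 below that median. The counts are per gene and sum the transcripts from its several start sites, so melanocyte and pigment epithelium forms were not separated.

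Of the retinoid and epithelium genes, Rlbp1 (Entrez 19771) had 829.3, 868.1 and 750 normalised reads across KO 1 to 3, against 368.4, 317.9 and 306.8 across CON 1 to 3. The gap between the groups was wider than either group's range, at 815.8 ± 60.2 in KO and 331 ± 32.8 in CON (SD, n = 3 each). The log2 difference was 1.00 (SE 0.23, limma adjusted p = 0.0155), and it lay between 0.96 and 1.05 whichever library was left out. The call was nonetheless lost without KO 1 (limma adjusted p = 0.0534), KO 2 (0.106) or KO 3 (0.0602), and the p ran from 0.00599 to 0.174 over the alternatives that tested it (the filter of 3 units left it out). Rlbp1 is also expressed in Müller glia of the retina.

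Rpe65 (Entrez 19892), the isomerase of the visual cycle, had 0 reads in all 6 libraries. A count of 0 allows up to 3 reads, which is from 1.59 (KO 3) to 1.8 (KO 2) normalised reads in KO and from 3.17 (CON 1) to 9.44 (CON 2) in CON. This floor covers counting error only, since reads without molecular identifiers are not molecules. Best1 (Entrez 24115) had 21, 74 and 129 reads across KO 1 to 3, against 45, 8 and 10 across CON 1 to 3, too few to enter the fit. In normalised reads these were 12.1, 44.5 and 68.2 in KO and 47.5, 25.2 and 14.7 in CON. The ranges overlapped, with KO 1 the lowest library of all (exact permutation test, two-sided, p = 0.7, n = 3 each).

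**Figure D2:**
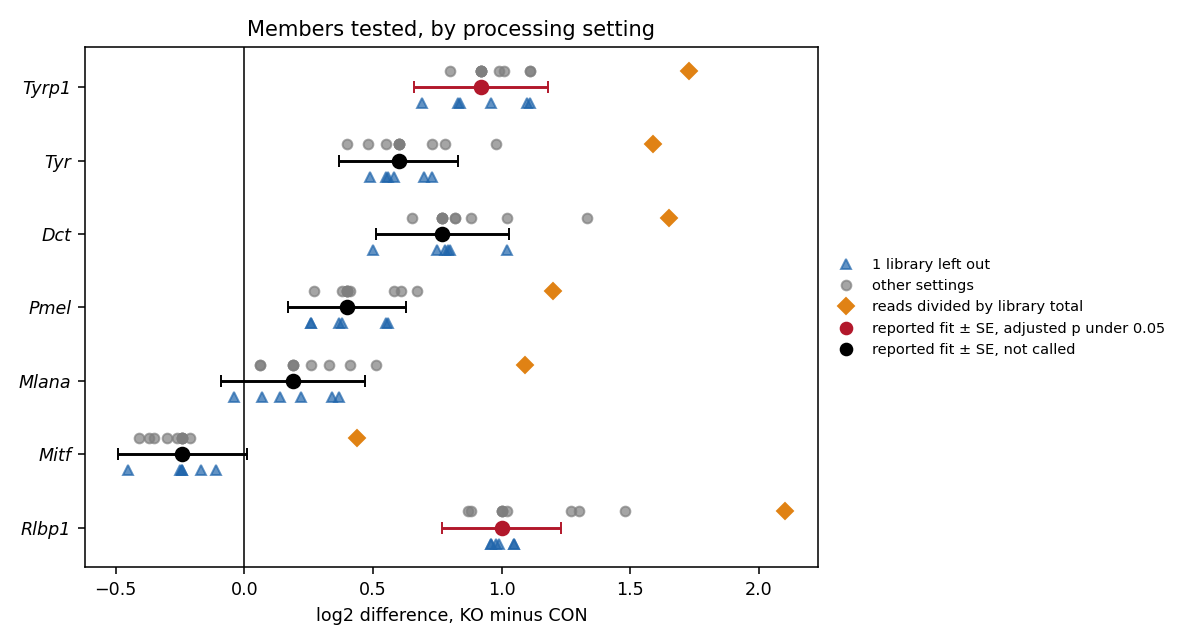
Log2 difference, KO minus CON (horizontal axis), of the 7 members tested, in the reported fit (large points, bars ± SE, red where adjusted p was under 0.05) and under the alternatives (small points). Tyrp1, Tyr, Dct, Pmel and Rlbp1 lie above 0 in every setting drawn, whereas Mlana reaches -0.04 and Mitf changes sign when scaled by total reads (0.44).

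Per kilobase of exon, Pmel was the most abundant member, with 2532 ± 534.7 normalised reads in KO and 1904 ± 399.2 in CON (SD, n = 3 each, also below). Tyrp1 followed with 1195 ± 245.8 in KO and 610.2 ± 185.8 in CON. Dct had 669.4 ± 257.3 in KO and 361.3 ± 11.1 in CON, and Mlana 459.1 ± 112.9 in KO and 394 ± 146.2 in CON, so that these 2 neighbours did not differ beyond their spread in either group. Rlbp1 had 276.2 ± 20.4 in KO and 112.1 ± 11.1 in CON. Tyr stood at 146.3 ± 19.3 in KO and 89.2 ± 19.6 in CON, and Mitf at 84.2 ± 1.11 in KO and 107.2 ± 31 in CON. In CON the levels of Rlbp1, Mitf and Tyr lay within their spread of each other, whereas in KO they were separate. Slc45a2 (27.1 in KO and 7.12 in CON) and Best1 (16.1 in KO and 11.3 in CON) were lowest among the members with reads. Exon length is the union of annotated exons and covers unused ones, so the order is approximate.

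The composition of the pigment transcripts also varied among libraries. Tyr, Tyrp1, Dct, Pmel, Mlana and Slc45a2 together had 18028, 14935 and 11243 normalised reads across KO 1 to 3, against 10186, 8110 and 9578 across CON 1 to 3. All KO libraries lay above all CON libraries, KO 3 least so, and the ratio of the group means was 1.59. It was 1.82 for shares of the reads outside crystallins and 2.81 for shares of all reads. These scales move genes in general: with voom, the median log2 difference over all genes tested was 0.23 with reads outside crystallins. It was 0.86 with total reads, against 0.03 with the size factors. The larger ratios therefore include a shift shared by all genes. Pmel made up from 38.7% to 40.3% of this sum in KO and from 43.7% to 52.6% in CON. Tyr made up 4.89%, 7.45% and 10% across KO 1 to 3, against 5.92%, 9.7% and 5.36% across CON 1 to 3, so its share varied as much within the groups as between them.

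Other genes of the pathway were counted on 5 lists of 70 genes in all, of which 49 were tested. Of these, 6 (12.2%) were called higher and 1 (2.04%) lower, against 6.91% and 4.39% of all genes tested. The lists overlap by 1 gene, Tfec, and were written with earlier results of these data known. Of 25 tested genes of melanosome biogenesis and transport, 2 rose and none fell (30 listed, median log2 difference 0.30 over those with reads), and 8% higher is near the 6.91% over all genes. The 2 were Gpnmb and Myo5a. Gpnmb, which encodes a glycoprotein of melanosomes and of macrophage lysosomes, had 5242, 20333 and 20757 normalised reads across KO 1 to 3, against 718.9, 440.6 and 556.1 across CON 1 to 3 (log2 difference 4.18, SE 0.43, limma adjusted p = 0.000227). KO 1 was the lowest KO library for Gpnmb and still lay far above all CON libraries. The call was lost without a filter on low values (limma adjusted p = 0.0633). Myo5a, the myosin motor that moves melanosomes, had 1643, 1815 and 2365 normalised reads across KO 1 to 3, against 1032, 1158 and 877.6 across CON 1 to 3 (log2 difference 0.82, SE 0.22, limma adjusted p = 0.0366). Its call was lost without any single library other than CON 1, with limma adjusted p from 0.0348 to 0.206 over the fits with 1 library left out. It was also lost with no filter (0.114), equal medians (0.079), no trend (0.054) and the name style as covariate (0.409). Oca2, a melanosomal anion channel chosen here after its values were seen, stood the other way at 832.8, 432.8 and 225.2 normalised reads across KO 1 to 3, against 809.7, 840.3 and 1347 across CON 1 to 3. KO 1 lay within the CON range, and the difference did not pass (log2 difference -0.90, SE 0.34, limma adjusted p = 0.114) unless KO 1 was left out (0.0411).

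Of 7 tested genes of pigment epithelium identity, 2 (28.6%) rose and none fell (13 listed, median log2 difference 0.77), against 6.91% and 4.39% of all genes tested. A share of 7 genes is coarse. Trpm3, named after its values were seen, had overlapping groups (log2 difference 0.04, SE 0.24, limma adjusted p = 0.942). Kcnj13, a potassium channel gene of that epithelium, had 1438, 1481 and 1367 normalised reads across KO 1 to 3, against 319.9, 610.5 and 666.7 across CON 1 to 3 (log2 difference 1.23, SE 0.25, limma adjusted p = 0.01). The KO libraries lay close together, all above the highest CON value. Serpinf1, which encodes the secreted factor PEDF, had 2624, 2824 and 2580 normalised reads across KO 1 to 3, against 1048, 1334 and 1409 across CON 1 to 3 (log2 difference 1.00, SE 0.20, limma adjusted p = 0.0099). Both calls were lost without KO 2, with limma adjusted p of 0.0562 for Kcnj13 and 0.0725 for Serpinf1, and that of Kcnj13 also with no filter (0.102). With the name style as covariate both were lost as well (0.141 and 0.152). Otx2, a transcription factor of eye pigment epithelium and photoreceptors named after its values were seen, had 561.5, 611.4 and 707.7 across KO 1 to 3, against 218.5, 519.3 and 151.9 across CON 1 to 3 (log2 difference 0.89, SE 0.31, limma adjusted p = 0.0906). The groups did not overlap, although CON 2 came close to KO 1.

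Of 9 tested visual cycle genes, 2 (22.2%) rose and none fell, against 6.91% and 4.39% of all genes tested. A share of 9 genes is coarse. The median log2 difference was 0.38 over the 12 with reads of 13 listed, against 0.08 over all genes with reads. Stra6, named after its values were seen, stood the other way, at 684.8, 315.6 and 308.7 normalised reads across KO 1 to 3. In CON 1 to 3 it had 1410, 1111 and 442.5. The ranges overlapped and the difference did not pass (log2 difference -0.89, SE 0.37, limma adjusted p = 0.146), although it did without CON 3 (0.0282). Rbp3 (-0.29) and Abca4 (-0.04) were not higher in KO either. Rrh, which encodes the pigment epithelium opsin peropsin, had 1046, 553.7 and 679.7 normalised reads across KO 1 to 3, against 101.3, 100.7 and 104.7 across CON 1 to 3 (log2 difference 1.86, SE 0.27, limma adjusted p = 0.00161). That is 7.43-fold, with CON values within a narrow range, and it kept its call in every alternative that tested it (highest limma adjusted p 0.0406; the filter of 3 units left it out). Rbp4, the carrier of retinol in plasma, had 2283, 1436 and 1213 reads across KO 1 to 3, against 11, 4 and 0 across CON 1 to 3 (log2 difference 3.22, SE 0.30, limma adjusted p = 0.000163). These were 1315, 863.3 and 641.1 normalised reads in KO and 11.6, 12.6 and 0 in CON. The deposited values of all CON libraries lay less than 1 unit above the lowest value. Rbp4, 1 of the 2 called genes here, therefore passed the filter only through its KO values. It lost its call with voom on recovered reads, where the p was 0.065 with the size factors and 0.0748 with reads outside crystallins as library size. Lrat, which makes the retinyl esters that RPE65 uses, had too few reads to enter the reported fit, at 22, 38 and 46 across KO 1 to 3 and none in any CON library. With no filter it was called higher (limma adjusted p = 0.0272). In normalised reads these counts were 12.7, 22.8 and 24.3 in KO, above the 3.17 to 9.44 that 3 reads would be in a CON library. A floor of 3 reads may be too low.

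Markers of the neural crest route to melanocytes differed widely in level. Sox10 and Pax3, transcription factors of that lineage, had 0 reads in all 6 libraries, and the melanocortin receptor gene Mc1r had 1 read in each KO library and at most 2 in a CON library. Kit, the receptor for stem cell factor, had 76.6, 102.2 and 80.9 normalised reads across KO 1 to 3, against 72.8, 0 and 32.4 across CON 1 to 3 (log2 difference 0.65, SE 0.33, limma adjusted p = 0.233). Its groups did not overlap, CON 1 coming close to KO 1. Pax3, Mc1r and Kit were named after their values were seen. Of 6 tested lineage factors and receptors, none rose and 1 (16.7%) fell, against 6.91% and 4.39% of all genes tested. A share of 6 genes is coarse. Of the 12 listed, Asip was not matched, and the median log2 difference was 0.38 over those with reads. The gene that fell was Ednrb, an endothelin receptor gene used by melanoblasts and by many other cells, with 2521, 2130 and 1930 normalised reads across KO 1 to 3, against 5331, 4850 and 5435 across CON 1 to 3. The groups were far apart (log2 difference -1.19, SE 0.20, limma adjusted p = 0.00335). It lost its call when scaled by total reads (log2 difference -0.44, limma adjusted p = 0.124). It also lost it with the name style as covariate, where KO 1 alone is set against CON (-0.99, limma adjusted p = 0.113). Trpm1, a MITF target of melanocytes that retinal bipolar cells also express, named after its values were seen, had 3307, 4069 and 4180 normalised reads across KO 1 to 3, against 2507, 1709 and 2867 across CON 1 to 3. The groups did not overlap, and the difference did not pass (log2 difference 0.69, SE 0.23, limma adjusted p = 0.0771). Of the 3 MITF relatives Tfeb, Tfe3 and Tfec, none was called in either direction. Tfec, named after its values were seen, differed widely within KO, at 487.2, 155.7 and 26.4 normalised reads across KO 1 to 3, against 0, 85 and 31 across CON 1 to 3.

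**Figure D3:**
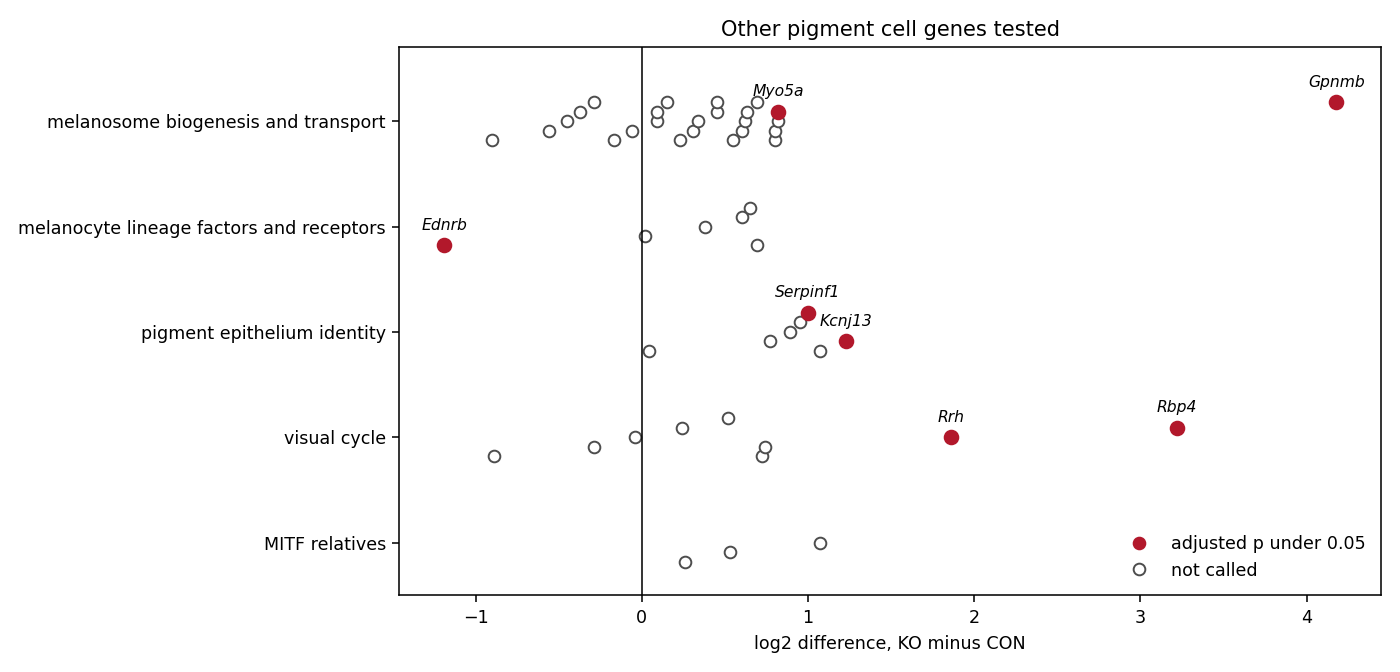
Log2 difference, KO minus CON (horizontal axis), of tested genes on the 5 lists of other pigment cell genes, with filled points for an adjusted p under 0.05 and open points for genes not called. Gpnmb (4.18), Rbp4 (3.22) and Rrh (1.86) lie farthest to the right, and Ednrb (-1.19) is the called gene on the left.

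Markers of neighbouring cells moved in the same libraries. Of 14 tested genes of retinal progenitors and the ciliary margin, 3 (21.4%) rose and none fell, against 6.91% and 4.39% of all genes tested, and the summed level of the list ran from 20345 to 23902 normalised reads in KO and from 10112 to 11343 in CON. Six6 (log2 difference 1.78) and Lhx2 (1.02) were among them. Photoreceptor markers summed to between 426.2 and 1233 in KO and between 97.3 and 450 in CON, with 1 of 3 tested called higher. Inner retina markers overlapped, at 1308 to 1952 in KO and 1369 to 1835 in CON, with 0 of 6 called by limma. Macrophage markers, of which 12 of 15 rose, summed to 26471, 13206 and 7948 across KO 1 to 3, against 2307 to 4097 in CON. KO 1 was the highest KO library for macrophage markers. Among the members, it was highest in KO for Tyrp1, Dct, Pmel, Mlana and Slc45a2 and lowest in KO for Tyr, Mitf and Best1. Among the other pigment genes with values given per library, it was highest in KO for Tfec, Rrh, Rbp4, Oca2, Stra6 and Ednrb. It was lowest in KO for Gpnmb, Myo5a, Otx2, Trpm1, Kit and Lrat. Lens markers summed to 3225792 to 4287969 in KO and 7946487 to 9902067 in CON, with 7 of 10 tested lower and 1 higher. Each sum gives most weight to the most abundant genes of its list, as to Cryaa among lens markers (means of 2809412 in KO and 7191873 in CON). It is not a measure of cell number. Mesenchyme markers (778.5 to 1143 in KO and 976.4 to 1369 in CON; 1 of 3 tested higher and 1 lower) and endothelium markers (1582 to 3924 in KO and 3012 to 3588 in CON) overlapped between the groups. Schwann cell markers reached at most 158.1 in KO and 39.1 in CON, with Sox10 at 0 in all libraries, and surface epithelium markers at most 164.1 in KO and 57.5 in CON. The part of retinal, macrophage and lens RNA in the differences of the pigment genes was not tested.

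**Figure D4:**
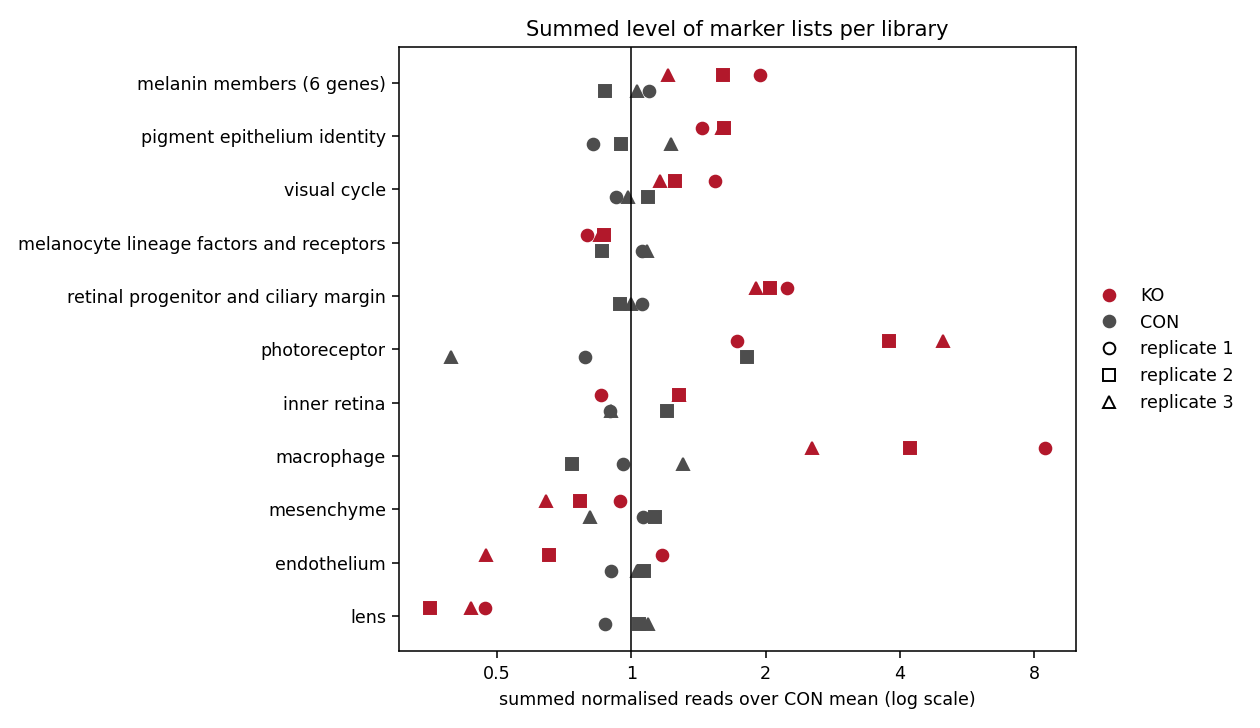
Summed normalised reads of each marker list divided by the mean of the CON libraries (horizontal axis, log scale), with red points for KO and grey points for CON libraries. Each sum gives most weight to the most abundant genes of its list. The melanin members lie from 1.21 to 1.94 in KO, retinal progenitor and ciliary margin markers from 1.9 to 2.23, macrophage markers from 2.54 to 8.45 and lens markers from 0.354 to 0.471.

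The 5 named genes whose pattern over the 6 libraries lay nearest to the mean of the 7 tested members were Gusb, Cnot9, Mmut, Spidr and Gabpb2. Their root mean square distance from that mean, on centred log2 values, was 0.04 for Gusb, 0.06 for Cnot9, 0.08 for Mmut and 0.09 for Spidr and Gabpb2. The mean of the tested members stood at 0.41, 0.32 and 0.05 across KO 1 to 3, against -0.22, -0.38 and -0.19 across CON 1 to 3. Gusb, which encodes a lysosomal glucuronidase, stood at 0.42, 0.39 and 0.06 across KO 1 to 3, against -0.24, -0.40 and -0.24 across CON 1 to 3. None of the 5 passed the test between groups (limma adjusted p = 0.0949 for Gusb and from 0.159 to 0.332 for the others).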

How the data were processed

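Lens RNA was measured in 6 libraries. Per the submitters' processing notes, the tools were Trimmomatic, HISAT2 2.1.0, featureCounts 1.6.4 and DESeq2 (listed as version 2.11.0.6), and the genome build was mm9. The table deposited by the authors holds log2 values after a variance-stabilising transformation, 27179 genes by 6 libraries, with a lowest value of 6.504. The transformation was inverted to reads; 100.0% of values came within 0.1 of a whole number. Among genes with 1 to 100 reads, from 51.5% to 55.1% of counts were even, so both mates of some pairs may have been counted, and a floor of 3 reads may be too low. Identifiers were matched to RefSeq symbols (25275 matched), and exon lengths came from GENCODE M21 (GRCm38). Depth was 20361430 to 61219009 reads.

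KO was compared with CON on the log2 values with limma 3.58.1 in R 4.3.3 (eBayes with trend), over the 11468 genes whose mean value exceeded the lowest by 1 unit or more, with Benjamini-Hochberg adjustment. Members under that filter had an exact permutation test. Members and lists were chosen with earlier results of these data known. Single values of some marker genes are not reported here. By rule, genes named beside the members were Gclc, the called genes of each pigment list, markers without reads and the 5 nearest patterns. Oca2, Otx2, Trpm1, Tfec, Lrat, Kit, Pax3, Mc1r, Six6 and Lhx2 were named after their values were seen. So were Stra6, Rbp3, Abca4, Trpm3 and Cryaa. Alternatives tried were equal medians, quantile normalisation, no filter or one of 3 units, voom with 3 library sizes, log2 of normalised reads plus 1, no trend, the replicate block, the name style as covariate and each library left out.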

Additional observations from a re-analysis of the deposited data

How the results depend on the processing

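Of 300 values of 18 single genes under the alternatives, 238 kept their direction and their side of the threshold, 47 lost a call, 13 gained one and 2 changed sign. The 18 include Tyr, Dct, Pmel, Mlana, Mitf, Trpm1, Otx2 and Oca2, which were not called in the reported fit. These could not lose a call, so the 47 all fall on the remaining genes. The sign changes were Mlana without CON 1 (-0.04, within -0.04 to 0.37 with 1 library left out) and Mitf with voom and total reads (0.44). Best1, which was not tested in the fit, also changed sign without KO 3 (-0.853 normalised reads, within -0.853 to 27.2). The number of members called higher was 2, and 1 with no filter, a filter of 3 units, equal medians, voom with size factors, log2 of normalised reads plus 1, or no trend. With quantile normalisation it was 3, Dct being called as well (limma adjusted p = 0.0324). It was 5 with voom and total reads, 0 with the name style as covariate, and 0 to 2 with 1 library left out; the cause was not tested. KO 2 and KO 3 share the name style, so that fit sets KO 1 alone against CON, at log2 differences of 1.11 for Tyrp1 and 1.02 for Rlbp1. The number of other pigment genes called higher was 6, and 24 with total reads, 10 with reads outside crystallins, 3 with the name style and 3 to 9 with 1 library left out. The number called lower was 1, and 0 with total reads or the name style and 1 to 2 with 1 library left out. Over all genes 1297 were called, and 357 with no filter, 802 with a filter of 3 units, 3399 with total reads, 863 with reads outside crystallins, 243 with the name style and 498 to 1963 with 1 library left out. The share of calls that were higher was 61.1%, and 47.3% with equal medians, 47.1% with voom and size factors, 97.5% with total reads, 42.4% with a filter of 3 units, 80.7% with no filter and 84% with the name style. Relative to the median of all genes, which total reads moved to 0.86 and reads outside crystallins to 0.23, Tyrp1 stood at 0.87 and 0.88 and Rlbp1 at 1.24 in both. Equal replicate numbers did not pair the libraries (residual correlations -0.364, -0.128 and -0.14). With the replicate block 0 members were called higher, at a limma adjusted p of 0.054 for Rlbp1 and 0.0841 for Tyrp1, Myo5a (0.108) and Gclc (0.0643) lost their calls, and 914 genes were called in all. Rpe65, Slc45a2 and Best1 lay under the filter, and a level of Rpe65 under 3 reads per library was not detectable at this depth.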
